A study of Mus musculus with 24 samples.

Results

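The response of splenic dendritic cells (DCs) of normal mouse pups to 1 neonatal dose of allergen was measured on 7 of the 24 arrays of the series, 4 of stimulated normal pups (AF84 to AF87) and 3 of naïve normal pups (AF76, AF77 and AF79). They were chosen by the treatment and maternal status in their labels, from the array group the methods call Set 1. The labels do not name the set, which was inferred from the array numbers in the titles and the set sizes in the methods. Normal pups were BALB/c offspring of mothers that were not asthmatic. Stimulated pups had received a single intraperitoneal injection of ovalbumin (OVA, 5 µg) and alum (1 mg), given together in 0.1 ml of buffer, on day 3 of life by the labels and on day 4 by the methods, and naïve pups had received no allergen. DCs were taken from the spleens of 14-day-old pups as the cells that bound CD11c magnetic beads. By the methods, purity was routinely checked by flow cytometry, and nearly all purified cells carried both CD11c and MHC class II. Alum, an aluminum salt adjuvant, was given to every stimulated pup, and alum alone was not a group of the series, so the effects of OVA and of alum cannot be told apart. The 4 naïve and the 4 stimulated arrays of Set 1 from asthma-at-risk pups, the offspring of asthmatic mothers, are used for comparison. Array numbers ran in blocks by group, so an effect of the order of handling cannot be told apart from the treatment.

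DCs take up antigen, carry it to T cells and set the kind of T cell response through the peptide, costimulatory molecules and cytokines they present. Alum given with protein is known for local recruitment of innate cells and for antibody responses of the type 2 kind. In neonatal mice the spleen is also a site of blood formation, with erythroid precursors and megakaryocytes, the large cells that shed platelets, lying in the red pulp.

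The defining markers of DCs were present in both groups. Itgax, which encodes CD11c, the protein the beads bound, gave a log2 signal of 12.79, 12.82 and 13.10 in naïve and of 12.91, 12.84, 12.97 and 12.88 in stimulated DCs. Median signals of the 15 Set 1 arrays ran from 272.1 to 283.1. AF79 stood apart, with a log2 difference between the 3′ and 5′ control probe sets of β-actin, a sign of RNA quality, of 1.26 against 0.36 to 0.61 on the other Set 1 arrays, and the calls of named genes that were lost without it are given beside them. By the methods, Set 1 had been planned with 4 arrays in each group, and 1 was dropped by the authors after a principal component plot. The methods call the arrays of a group biological replicates, and the p-values rest on the spread between them. Neither the labels nor the methods say how many pups gave RNA for an array, so the spread between single pups is not known.

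Stimulated normal DCs differed widely from naïve normal DCs. Of 22626 probe sets, 2599 (11.5%) passed the test, at an adjusted p of 0.05 and a level at least 25% higher in one group than in the other, 1296 (5.73%) higher and 1303 (5.76%) lower in stimulated DCs, and 6294 had an unadjusted p under 0.05. They represented 1933 genes, 7 of which had probe sets called both ways. Changes of 2-fold or more were seen for 166 probe sets that rose and 237 that fell, and changes of 8-fold or more for 15 and 7. The median log2 change over all probe sets was 0.0039, and 5% of them lay below -0.45 and 5% above 0.45. With 1 array left out at a time, the count ran from 2108 without AF87 to 3109 without AF77.

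Of the 15 largest rises, 9 were genes of the platelet and megakaryocyte list, and of the 15 largest falls, 4 were chemokine genes and 7 belonged to none of the lists described here. The 15 genes with the largest rises were Ppbp, Alox12, Pf4, Slc6a4, Gp1bb, Cavin2, Myl9, Treml1, Fhl1, Timp3, Npy, Itga2b, Clec1b, Gp5 and Trpc6, with log2 changes from 2.66 to 5.37. The 15 genes with the largest falls were Cxcl1, Igha, Cxcl13, C6, Fasl, Hspa1a, Ctla4, Ccl4, Hspa1b, Ifng, Trat1, Clec4e, Prom1, Xcl1 and Scg5, with log2 changes from -3.22 to -1.89. These genes were chosen for the size of their change, so their values are given as a description. Naïve levels of Slc6a4 and Trpc6 lay below the lower quartile of all probe sets on each of those arrays. So did stimulated levels of Trat1 on theirs, and the size of these 3 changes is uncertain. The heat shock genes Hspa1a and Hspa1b were the least certain of these, with adjusted p-values of 0.0153 and 0.0425, and Hspa1a was not called without AF79 (adjusted p = 0.0742), nor Hspa1b without AF76, AF79, AF83, AF84, AF85, AF87, AF89 or AF90. With all 24 arrays in the fit and set as a term, Hspa1a (-1.54, adjusted p = 0.196) and Hspa1b (-1.40, adjusted p = 0.166) were not called.

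**Figure D1:**
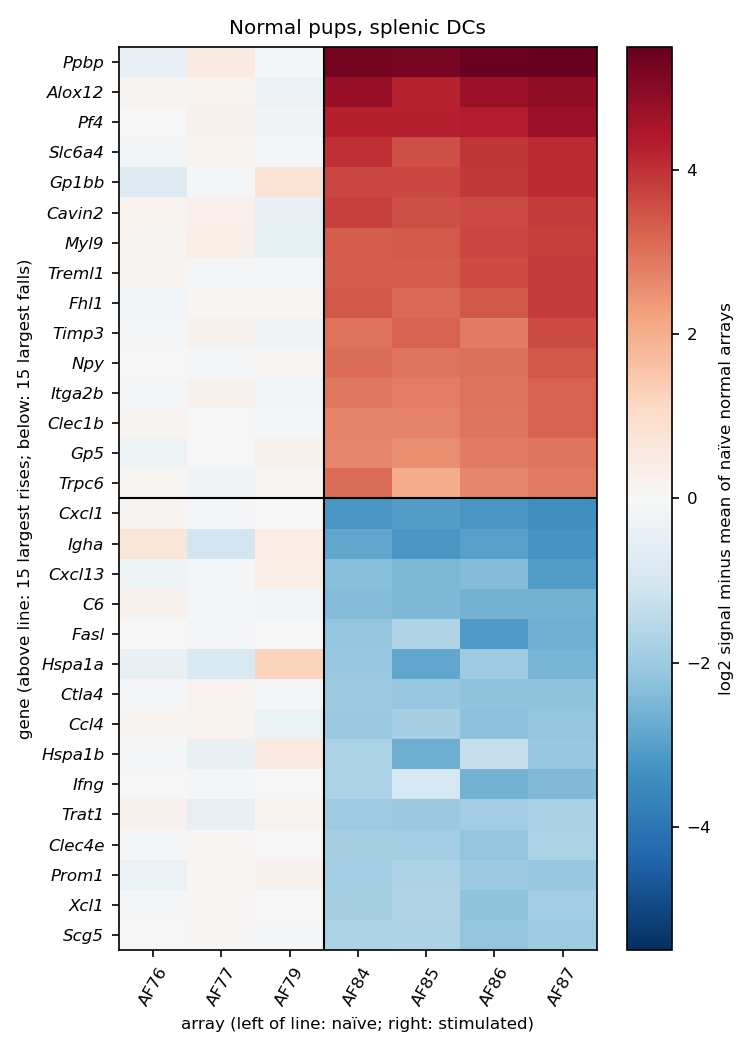
Heat map of the 15 largest rises (above the line) and the 15 largest falls (below it) among called genes, 1 row per gene and 1 column per array, with color for the log2 signal minus the mean of the 3 naïve normal arrays. All 4 stimulated arrays moved the same way in each row, from 5.37 on average for Ppbp at the top to -3.22 for Cxcl1.

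Platelet and megakaryocyte genes rose together. Of 14 measured genes, 12 rose, with a median log2 change of 2.94 over the list. Ppbp, which encodes the precursor of platelet basic protein, was 5.93, 6.83 and 6.31 in naïve and 11.62, 11.59, 11.81 and 11.91 in stimulated DCs on the log2 scale. This was a 41.4-fold rise (log2 change 5.37 ± 0.25, SE, adjusted p = 9.78e-09). Pf4, platelet factor 4, a chemokine stored in platelet α-granules, was 7.32, 7.60 and 7.14 in naïve and 11.64, 11.63, 11.69 and 12.06 in stimulated DCs. The groups lay more than 4 log2 units apart, and the rise was 21.1-fold (4.40 ± 0.18, SE, adjusted p = 4.89e-09). Alox12, the platelet 12-lipoxygenase, rose 25.3-fold, Slc6a4, the serotonin transporter by which platelets load serotonin, 14.9-fold, and Itga2b, the α subunit of the fibrinogen receptor, 7.94-fold. The naïve levels of Slc6a4 were 4.69, 5.04 and 4.76, below the lower quartile of all probe sets on those arrays, so the size of its rise is uncertain. The von Willebrand receptor subunits Gp1bb, Gp5 and Gp9 rose by 3.84, 2.76 and 2.20 on the log2 scale, and Clec1b, the receptor for podoplanin, by 2.90. Vwf, made by megakaryocytes and endothelium alike, rose by 0.73. The members that did not pass were Itgb3, the β subunit that pairs with Itga2b, at 0.24, and the adhesion molecule Selp at 0.32. The mean log2 signal of the list was 6.28 to 6.42 in naïve and 8.99 to 9.43 in stimulated normal DCs. In bulk RNA, more cells of a type and more RNA per cell cannot be told apart, here and for every marker list that follows.

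Erythroid genes rose as well, less steeply and over more genes. Of 16 members, 14 rose, the median log2 change was 0.94 and all 16 changes were positive. Gata1, the transcription factor that directs erythroid and megakaryocyte differentiation, was 6.77, 6.68 and 7.75 in naïve and 8.94, 8.88, 8.84 and 9.05 in stimulated DCs. It rose 3.64-fold (1.86 ± 0.21, adjusted p = 3.59e-05), and AF79 lay between the other naïve arrays and the stimulated ones. Klf1, the erythroid Krüppel-like factor, was 7.82, 7.57 and 8.53 in naïve and 10.04, 9.67, 9.63 and 9.78 in stimulated DCs, and rose by 1.81 on the log2 scale. Rhag, the Rh-associated membrane glycoprotein, rose 3.00-fold (1.59 ± 0.12, adjusted p = 1.11e-06), Hemgn by 1.86 and the carbonic anhydrase Car1 by 1.77 on the log2 scale. Hba-a1, an α-globin gene, changed by 0.05 ± 0.10 and the transferrin receptor Tfrc by 0.31 ± 0.06, just under the 25% difference required, and neither was called, although Tfrc was without AF79 (0.36) or AF84 (0.32). Alas2, the first enzyme of erythroid heme synthesis, was called at 0.50, and its call was lost when AF77, AF79, AF84, AF86 or AF87 was left out and with all 24 arrays in the fit (0.32, adjusted p = 0.448). When the 25% difference itself was tested, 9 erythroid members were called. The mean log2 signal of the list was 8.30 to 8.49 in naïve and 9.36 to 9.64 in stimulated normal DCs.

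Cell cycle genes moved the same way by small amounts. All 26 changes were positive with a median of 0.41, and 15 of the 26 passed, all upward. Nusap1, a spindle protein, was 10.98, 11.02 and 10.84 in naïve and 11.44, 11.55, 11.49 and 11.56 in stimulated DCs (0.56 ± 0.07, adjusted p = 9.75e-05), with no overlap between groups, and its second probe set was not called (0.30). The mitotic kinases Aurka and Plk1 rose by 0.59 and 0.74, and thymidylate synthase, Tyms, which makes a DNA precursor, by 0.79. When the 25% difference itself was tested, 0 members were called. Mean levels of the erythroid and platelet lists moved with this list in the same arrays, and their part in it was not tested.

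**Figure D2:**
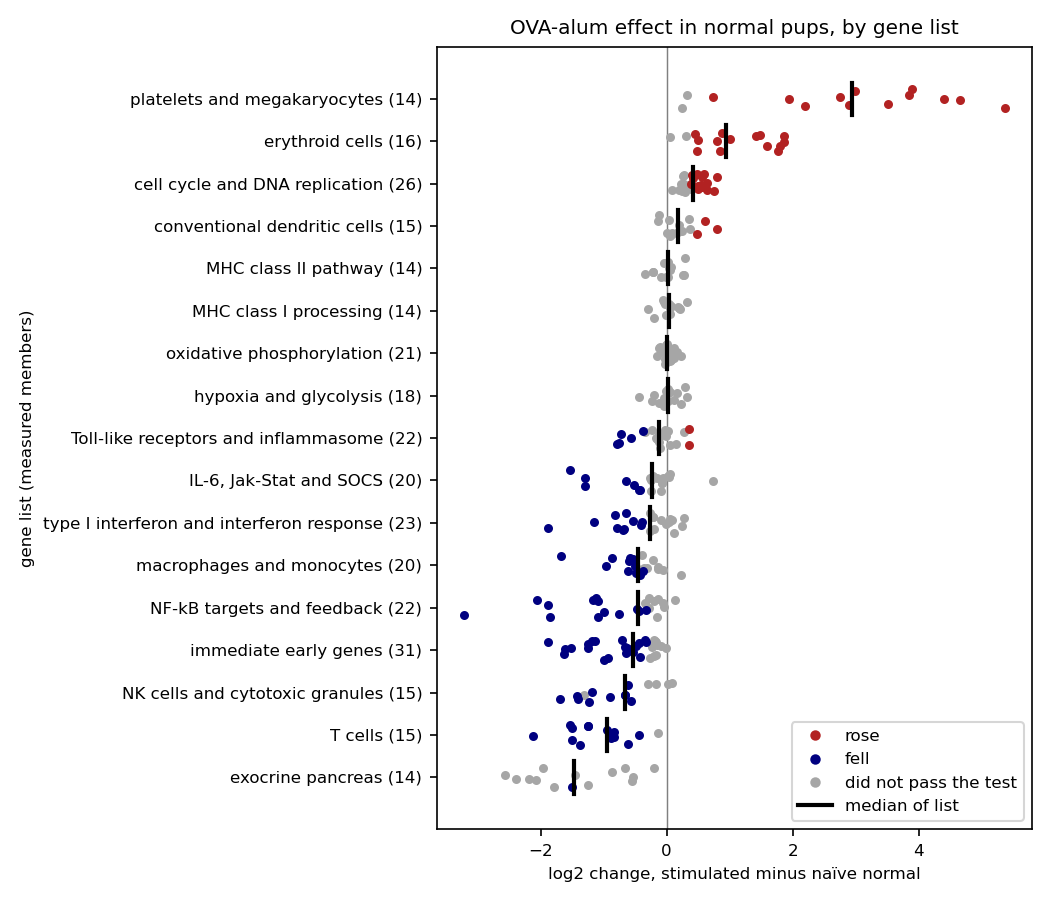
Log2 change from naïve to stimulated normal DCs (x axis) of each measured member of 17 gene lists (y axis, number of members in brackets), with points colored by the outcome of the test and the list median as a black bar. Platelet and erythroid lists lie to the right with medians of 2.94 and 0.94, T cell and NK lists to the left with medians of -0.94 and -0.67, and both MHC lists and the energy metabolism lists lie near 0.

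Genes of NF-kB signaling, the pathway that turns inflammatory and microbial signals into cytokine transcription, moved down. Of 22 targets and feedback regulators, 13 fell and 21 had a negative change, with a median of -0.45. Cxcl1, a neutrophil-attracting chemokine, was 8.97, 8.70 and 8.77 in naïve and 5.62, 5.74, 5.59 and 5.43 in stimulated DCs. It fell 9.31-fold (-3.22 ± 0.14, adjusted p = 5.58e-09). Ptgs2, the inducible cyclooxygenase, was 11.68, 11.68 and 11.70 in naïve and 9.92, 9.79, 9.69 and 9.79 in stimulated DCs, a 3.70-fold fall (adjusted p = 4.16e-08). Cxcl2, close kin of Cxcl1, was 12.08, 12.27 and 12.07 in naïve and 10.54, 10.34, 10.20 and 10.06 in stimulated DCs, a 3.61-fold fall. For each of these 3 genes the naïve arrays were closer to each other than to any stimulated array. The macrophage inflammatory chemokines Ccl4 and Ccl3 fell by 2.06 and 1.12, the cytokine Tnf by 1.10, Rel, the c-Rel subunit itself, by 1.17, and Nfkbiz, a nuclear coactivator of the pathway, by 1.00 on the log2 scale. Tnfaip3, which encodes the feedback inhibitor A20, fell by 1.09, but its groups overlapped and it was not called without AF76 or AF77 (adjusted p = 0.0596 and 0.0576).

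The upstream sequence of a few of these genes is shown because Cxcl1, Cxcl2, Ppbp and Pf4, which encode chemokines of 1 family, lie close together on chromosome 5 and moved in opposite directions. The start sites of Ppbp and Pf4 were 3.92 kb apart, those of Cxcl1 and Cxcl2 were 12.7 kb apart, and 118.8 kb separated Pf4 from Cxcl1. The sequences are the 250 bases before the start site on the gene's strand (RefSeq, GRCm38.p6), at chr5:90890995-90891244 for Cxcl1, chr5:90903649-90903898 for Cxcl2, chr5:30012864-30013113 for Il6, chr5:90768268-90768517 for Ppbp and chr5:90772185-90772434 for Pf4, all on the plus strand. Capitals mark GGNNTTTCC, the letters of a common NF-kB site, and AGATAA or TGATAA, those of a GATA site, each read on both strands.
Cxcl1: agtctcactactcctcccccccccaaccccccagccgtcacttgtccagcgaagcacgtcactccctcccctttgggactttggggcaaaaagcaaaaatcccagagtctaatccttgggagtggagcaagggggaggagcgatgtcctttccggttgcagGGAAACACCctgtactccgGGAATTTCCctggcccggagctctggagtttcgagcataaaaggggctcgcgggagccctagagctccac
Cxcl2: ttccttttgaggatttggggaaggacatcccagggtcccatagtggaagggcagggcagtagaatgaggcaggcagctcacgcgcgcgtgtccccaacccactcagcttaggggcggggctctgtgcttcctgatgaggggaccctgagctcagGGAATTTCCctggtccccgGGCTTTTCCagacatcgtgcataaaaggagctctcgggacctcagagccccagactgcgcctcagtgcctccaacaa
Il6: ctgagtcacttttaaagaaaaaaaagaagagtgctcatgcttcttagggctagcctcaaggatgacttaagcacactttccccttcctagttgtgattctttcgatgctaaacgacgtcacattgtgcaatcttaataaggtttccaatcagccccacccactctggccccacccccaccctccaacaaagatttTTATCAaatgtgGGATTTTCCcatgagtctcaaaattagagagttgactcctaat
Ppbp: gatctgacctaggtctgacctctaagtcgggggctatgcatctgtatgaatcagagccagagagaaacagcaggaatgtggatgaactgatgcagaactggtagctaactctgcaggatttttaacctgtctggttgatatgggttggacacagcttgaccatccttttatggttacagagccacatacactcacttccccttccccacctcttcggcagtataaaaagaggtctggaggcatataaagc
Pf4: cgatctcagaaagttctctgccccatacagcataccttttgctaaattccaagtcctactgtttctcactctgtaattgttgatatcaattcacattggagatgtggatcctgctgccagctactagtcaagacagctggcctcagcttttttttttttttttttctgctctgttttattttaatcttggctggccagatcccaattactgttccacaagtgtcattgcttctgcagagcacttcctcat
Cxcl1 held the NF-kB letters at 89 and 70 bases before the start, Cxcl2 at 96 and 77, and Il6 at 43 with GATA letters at 55, while Ppbp and Pf4 held neither in this window. Of 32851 promoter windows of this length, 4.93% held the NF-kB letters and 16.6% held GATA letters. Among the 18 NF-kB list members with a promoter in the table, 9 held the NF-kB letters, of which 5 fell, and of the 9 without them 6 fell. A member was counted if any of its windows held the letters, so this count is not like the shares of windows. A match is a description of letters and not evidence of binding.

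Promoters of 2 erythroid genes that rose are shown because GATA letters were frequent in that list, in 8 of the 11 members with a promoter in the table. A member was counted if any of its windows held the letters, whereas the 16.6% given above is a share of windows. In the platelet and megakaryocyte list 3 of 12 members held them. The window of Klf1 was chr8:84901732-84901981 and that of Rhag chr17:40810899-40811148, both on the plus strand, with the GATA letters in capitals.
Klf1: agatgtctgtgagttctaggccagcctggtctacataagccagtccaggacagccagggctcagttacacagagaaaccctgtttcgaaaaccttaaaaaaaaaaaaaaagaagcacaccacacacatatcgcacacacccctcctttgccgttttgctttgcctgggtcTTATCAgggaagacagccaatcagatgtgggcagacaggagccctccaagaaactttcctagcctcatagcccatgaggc
Rhag: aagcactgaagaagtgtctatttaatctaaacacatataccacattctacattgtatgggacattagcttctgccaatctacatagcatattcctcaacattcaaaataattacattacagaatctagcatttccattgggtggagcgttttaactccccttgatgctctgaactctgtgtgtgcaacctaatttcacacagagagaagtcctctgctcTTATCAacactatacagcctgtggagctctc
The letters began 80 bases before the start of Klf1 and 31 before that of Rhag. Of the 8 members with them 7 rose, the exception being Hba-a1, and of the 3 without them 2 rose, Gata1 and Sptb.

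Immediate early genes, the first to be transcribed after a signal, were lower in stimulated DCs across the list. All 31 changes were negative with a median of -0.53, and 21 of the 31 fell. Gem, a small GTPase of the Ras family, was 9.20, 9.16 and 8.73 in naïve and 7.27, 7.42, 7.05 and 6.83 in stimulated DCs, a 3.70-fold fall (-1.89 ± 0.15, adjusted p = 1.11e-06). Atf3, a stress-induced transcription factor, was 12.62, 12.62 and 12.65 in naïve and 11.18, 11.19, 10.94 and 10.78 in stimulated DCs, a 3.05-fold fall. Both genes were lower on all 4 stimulated arrays than on any naïve array. Maff fell by 1.63, Phlda1 by 1.52, and the orphan nuclear receptors Nr4a2 by 1.26 and Nr4a1 by 1.19 on the log2 scale. Fos, the archetype of the class, had a change of -0.16 ± 0.06 and was not called. When the 25% difference itself was tested, 11 members were called.

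Cytokine genes of the IL-6 and Jak-Stat group included 7 that fell of 20, with a median of -0.23. Il6 was 6.68, 6.74 and 6.80 in naïve and 5.61, 5.64, 5.12 and 5.40 in stimulated DCs, a 2.46-fold fall (adjusted p = 1.08e-05). It was dim and was left out by the filter on dim probe sets. Socs3, the inhibitor of IL-6 receptor signaling that IL-6 induces, was 10.47, 10.64 and 10.86 in naïve and 9.32, 9.03, 9.08 and 9.01 in stimulated DCs, a 2.91-fold fall. Neither gene overlapped between groups. Stat4, which conveys the IL-12 signal, fell by 1.29, Socs2 by 0.64 and the kinase Pim1 by 0.44 on the log2 scale.

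Of 23 genes of type I interferon and the response to it, 10 fell, with a median of -0.26. Ifnb1, interferon β, was 6.36, 6.23 and 6.20 in naïve and 4.09, 4.39, 4.57 and 4.45 in stimulated DCs, a 3.70-fold fall (-1.89 ± 0.14, adjusted p = 5.87e-07). Its stimulated levels lay below the lower quartile of all probe sets on those arrays, 5.00 to 5.04, so the size of the fall is uncertain. The antiviral synthetase genes Oasl2 and Oas1a fell by 1.15 and 0.80, and the interferon-inducible chemokine Cxcl10 by 0.82, on the log2 scale. Among 22 Toll-like receptor and inflammasome genes, 5 fell, among them the lipopolysaccharide coreceptor Cd14 (-0.80 ± 0.11), the inflammatory caspase Casp4 (-0.76 ± 0.11) and the sensor Nlrp3 (-0.72 ± 0.11). Tlr4 and Tlr9 had changes of -0.15 and -0.13 and were not called. Tlr3 and Aim2 rose by 0.35 each, but Tlr3 was not called without AF76, and Aim2 not without AF79, and neither was called after median centring or with all 24 arrays in the fit.

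**Figure D3:**
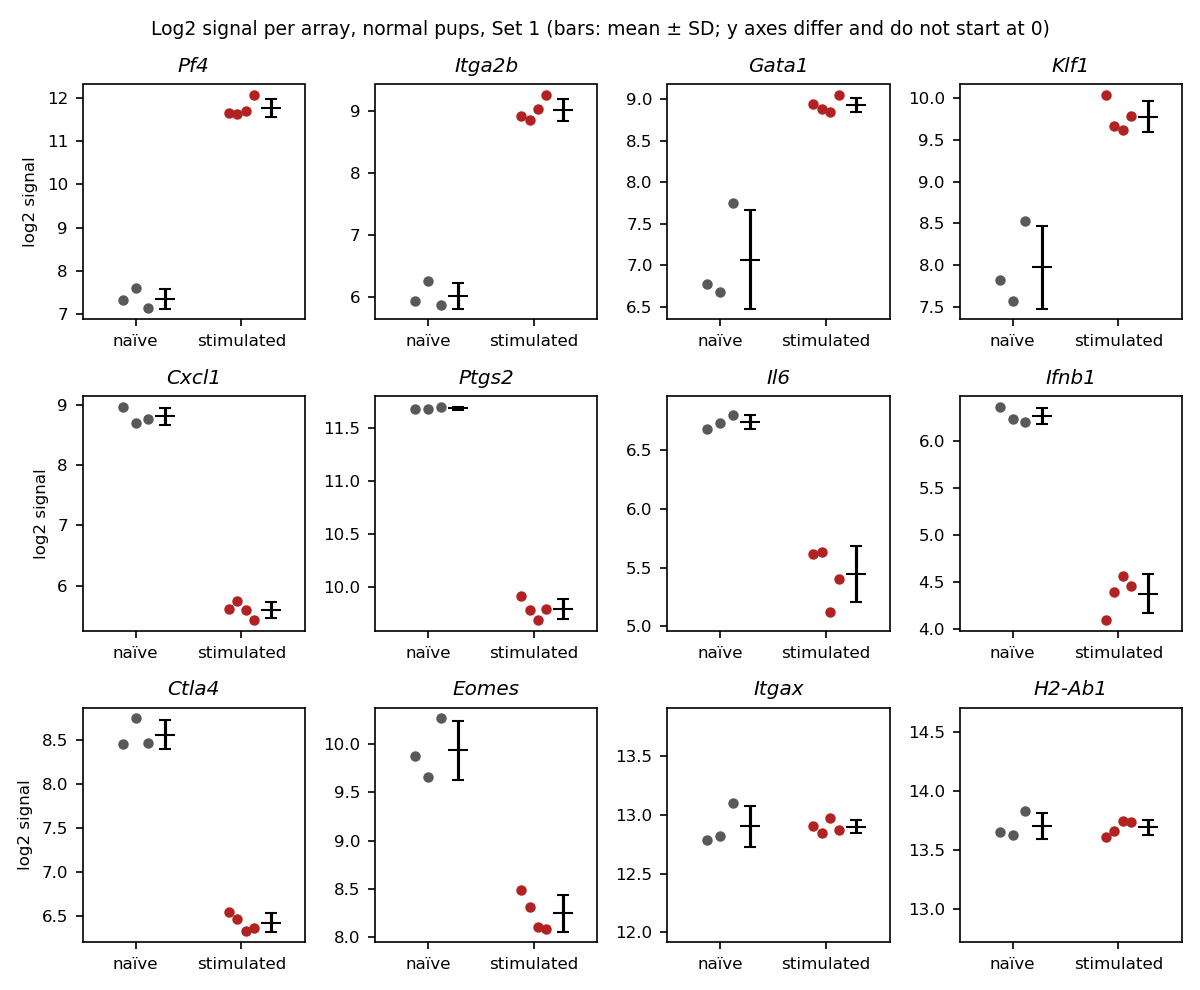
Log2 signal (y axis, range differs between panels) of 12 genes on each of the 3 naïve and 4 stimulated normal arrays (points), with the mean ± SD of the group beside them. Platelet and erythroid genes were higher, and Cxcl1, Ptgs2, Il6, Ifnb1, Ctla4 and Eomes lower, on every stimulated array, whereas Itgax and H2-Ab1 overlapped between groups.

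T cell genes fell across the list. Of 15 members, 14 fell, with a median log2 change of -0.94. Ctla4, the inhibitory receptor of activated and regulatory T cells, was 8.46, 8.75 and 8.47 in naïve and 6.55, 6.47, 6.33 and 6.36 in stimulated DCs, a 4.37-fold fall (-2.13 ± 0.11, adjusted p = 1.47e-08). Cd3e, a subunit of the T cell receptor complex, was 10.12, 9.96 and 10.17 in naïve and 8.68, 9.85, 8.11 and 8.70 in stimulated DCs, a 2.37-fold fall (adjusted p = 0.00486). AF85 lay close to the naïve arrays for Cd3e and apart from the other stimulated ones, which it did not for Ctla4. Cd6, Cd5 and the costimulatory receptor Cd28 fell by 1.51, 1.24 and 0.92, and Bcl11b, a T lineage transcription factor, by 0.83 on the log2 scale. The mean of the list was 9.08 to 9.15 in naïve and 7.63 to 8.63 in stimulated DCs, the highest being AF85. In a fit of the 7 arrays of normal pups alone, 7 members were called. In that fit Cd3e was not called (adjusted p = 0.0638), nor was Thy1 (adjusted p = 0.100), which in the fit of 15 arrays was called at -1.50 but not without AF79 (adjusted p = 0.0581).

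Genes of NK cells and cytotoxic granules fell too, 10 of 15, with a median of -0.67. Eomes, a transcription factor of NK and memory T cells, was 9.88, 9.66 and 10.27 in naïve and 8.49, 8.30, 8.10 and 8.08 in stimulated DCs, a 3.24-fold fall (-1.70 ± 0.15, adjusted p = 3.24e-06). Il2rb, the β chain of the IL-2 and IL-15 receptors, fell by 1.42, the activating receptor Ncr1 by 1.23, Klra7 of the Ly49 family by 1.18 and Klrd1, which encodes CD94, by 0.67 on the log2 scale. The death ligand Fasl and the cytokine Ifng, both among the largest falls, were lowered by 2.39 and 1.94. Gzmb, the cytotoxic protease granzyme B, was 10.14, 10.29 and 9.85 in naïve and 8.91, 10.76, 7.54 and 7.93 in stimulated DCs. Its change of -1.31 ± 0.51 was not called (adjusted p = 0.107), AF85 being above all naïve arrays, and without AF85 it was (adjusted p = 0.000213). Xcl1, the chemokine that draws cross-presenting DCs and is made by NK and T cells, was 10.58, 10.70 and 10.61 in naïve and 8.79, 8.98, 8.41 and 8.74 in stimulated DCs, a 3.73-fold fall.

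Chemokine ligands as a whole held 12 that fell of 25 and 2 that rose, Ppbp and Pf4. Beside those given above, Cxcl13, which guides B cells into follicles and is made by follicular stromal cells, was 9.78, 9.94 and 10.36 in naïve and 7.66, 7.55, 7.63 and 6.95 in stimulated DCs, a 5.98-fold fall (adjusted p = 3.76e-06). The monocyte chemokine Ccl2 fell by 1.52 and the eosinophil chemokine Ccl24 by 1.02 on the log2 scale. Several of these cytokines and chemokines are also made by NK cells, T cells and macrophages, whose marker lists were lower on the same arrays (NK mean 9.51 to 9.66 in naïve and 8.49 to 9.15 in stimulated DCs, macrophage mean 11.44 to 11.72 and 11.03 to 11.18). The part of these cells in the falls was not tested.

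Macrophage and monocyte genes fell in 11 of 20 members, with a median of -0.45 and 1 positive change. Cd5l, a secreted protein of tissue macrophages, was 11.09, 10.88 and 10.65 in naïve and 9.37, 9.11, 9.13 and 9.21 in stimulated DCs, a 3.18-fold fall (adjusted p = 3.82e-07). Marco, a scavenger receptor of marginal zone macrophages, fell by 0.96 and the lipid sensor Nr1h3, which encodes LXRα, by 0.86 on the log2 scale. C6, a complement component among the largest falls, was 9.50, 9.14 and 9.10 in naïve and 6.87, 6.79, 6.63 and 6.64 in stimulated DCs, a 5.71-fold fall. Of 19 genes for uptake of dying cells and other scavenger receptors, 6 fell and 2 rose, with a median of -0.15. Those that fell included Mfge8, the secreted bridge to phosphatidylserine (-1.25 ± 0.08, adjusted p = 2.83e-07), and Mertk, the receptor kinase for such bridges (-0.81 ± 0.10). Stab1, a scavenger receptor of macrophages and sinusoidal endothelium, was one of the rises (0.88 ± 0.19, adjusted p = 0.00599), and was not called with all 24 arrays in the fit (0.63, adjusted p = 0.0935). With all 24 arrays in the fit and set as a term, 6 macrophage members were called.

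Neutrophil genes moved both ways. The secondary and tertiary granule genes Ltf, Ngp, Lcn2 and Mmp9 fell by 1.22, 0.74, 1.15 and 1.02 on the log2 scale, and S100a8, an abundant cytosolic protein, by 0.43. Chil3, a chitinase-like protein of neutrophils and alternatively activated macrophages, was 11.73, 11.83 and 11.82 in naïve and 9.98, 10.18, 9.90 and 10.10 in stimulated DCs, a 3.38-fold fall (adjusted p = 5.83e-07). Mpo, myeloperoxidase, the primary granule enzyme made by promyelocytes, was 7.95, 8.22 and 6.87 in naïve and 9.28, 9.37, 9.23 and 9.55 in stimulated DCs, a 3.20-fold rise (1.68 ± 0.29, adjusted p = 0.00125). Over the 15 genes of the list 8 fell and 2 rose. The second that rose, Ctsg, was called at 0.79 with an adjusted p of 0.0431, and lost that call in most fits that left out 1 array, such as that without AF79, and with all 24 arrays in the fit.

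Of B cell genes 1 of 12 fell, Cr2, the complement receptor of follicular and marginal zone B cells (-1.02 ± 0.10, adjusted p = 1.13e-05), with 3 called without AF76 and 2 without AF77, AF79, AF84 or AF85. Of 9 plasma cell and immunoglobulin genes 4 fell, 2 without AF79. Igha, the IgA heavy chain, was 11.02, 9.30 and 10.74 in naïve and 7.51, 7.16, 7.35 and 7.10 in stimulated DCs, an 8.41-fold fall with wide error (-3.07 ± 0.62, adjusted p = 0.0037), and it was not called with all 24 arrays in the fit (-2.13, adjusted p = 0.0671). Prdm1, which encodes Blimp-1, the factor of plasma cell differentiation, fell by 1.08 on the log2 scale. Of 15 mast cell, basophil and eosinophil genes 3 fell, among them Hdc, which makes histamine. Hdc was 9.16, 9.37 and 9.57 in naïve and 7.49, 7.45, 7.62 and 7.62 in stimulated DCs, a 3.52-fold fall (adjusted p = 7.97e-05).

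Exocrine pancreas genes, whose enzymes are not made by DCs, had negative changes in 14 of 14 members with a median of -1.48, but only Prss2 (a trypsinogen, -1.50) passed. Prss2 was not called without AF79 (-1.20, adjusted p = 0.09) or AF85 (-1.43, adjusted p = 0.0514). Mean levels of the list varied from 6.55 to 7.78 among naïve and from 5.51 to 5.77 among stimulated normal arrays. The spread among naïve at-risk arrays entered the test, and without AF82, an array of that group, 12 of the 14 were called lower. Without AF85, 0 were called, and 8 in a fit of the 7 arrays of normal pups alone. The part of such tissue in the other results was not tested. Among 17 endothelial genes 2 rose and 2 fell, with 6 rising without AF88 and 4 without AF91, and among 17 stromal genes 1 rose and 3 fell, with 0 rising without AF76 or AF77 and 5 falling without AF88.

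**Figure D4:**
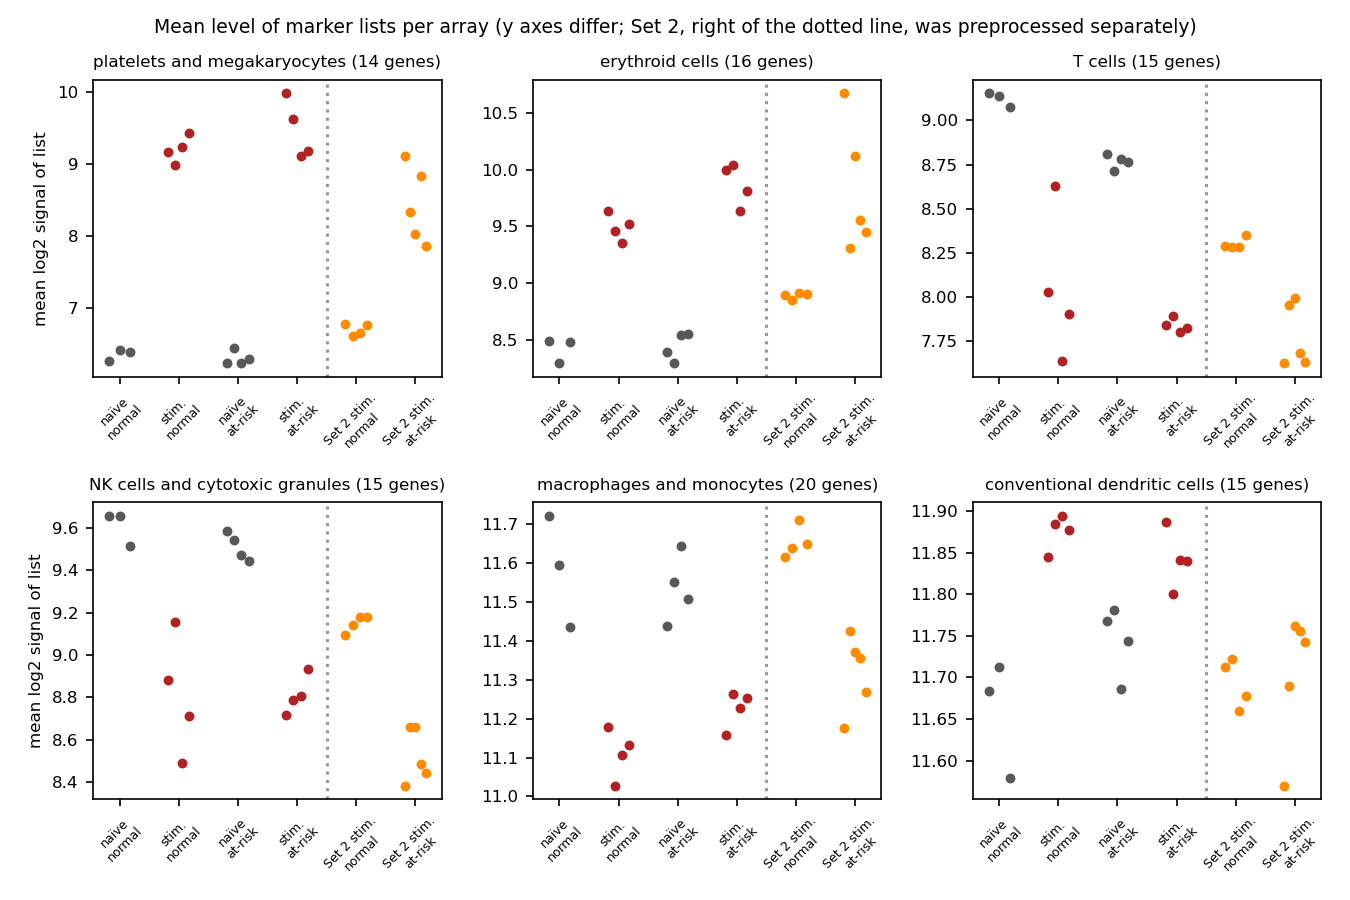
Mean log2 signal of 6 marker lists (y axis, range differs between panels) on each array (points) of the 6 groups of the series. In Set 1 the platelet list lies at 6.28 to 6.42 in naïve and 8.99 to 9.43 in stimulated normal DCs, and in Set 2, preprocessed separately and without naïve arrays, stimulated normal DCs lie at 6.62 to 6.78.

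Genes of conventional DCs moved mostly upward by small amounts. Of 15 conventional DC genes 3 rose, with a median of 0.19. Of the 15 changes 12 were positive, with 8 higher and 0 lower at an unadjusted limma p under 0.05. The mean log2 signal of the list was 11.58 to 11.71 in naïve and 11.85 to 11.89 in stimulated normal DCs. Zbtb46, the transcription factor that marks conventional DCs, was 11.47 on all 3 naïve arrays and 11.89, 11.98, 11.99 and 11.97 in stimulated DCs (0.48 ± 0.06, adjusted p = 8.65e-05). Xcr1, the receptor for Xcl1 on cross-presenting DCs, was 10.48, 10.69 and 9.80 in naïve and 10.99, 11.28, 11.09 and 11.11 in stimulated DCs, a 1.74-fold rise, and Itgae, which encodes CD103, rose by 0.62 on the log2 scale. With all 24 arrays in the fit the change of Itgae was 0.41, and it was not called (adjusted p = 0.132). The receptor tyrosine kinase Flt3, whose ligand sustains DCs, changed by 0.09 ± 0.06 and Itgax by 0.00 ± 0.08, and neither was called. Of 9 plasmacytoid DC genes 3 fell, with a median of -0.26.

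Antigen presentation genes did not pass the limma test in either direction. Among 14 genes of the MHC class II pathway 0 were called, 1 higher and 2 lower at an unadjusted p under 0.05, and the changes ran from -0.34 to 0.29. H2-Ab1, a class II chain, was 13.65, 13.63 and 13.83 in naïve and 13.61, 13.66, 13.75 and 13.74 in stimulated DCs. Among 14 genes of class I processing 0 were called, again 1 higher and 2 lower at an unadjusted p under 0.05, with changes from -0.30 to 0.32. For 18 genes of hypoxia and glycolysis and 21 of oxidative phosphorylation 0 were called, with 3 higher and 2 lower, and 2 higher and 0 lower, at an unadjusted p under 0.05. Median changes of these 4 lists were 0.03, 0.04, 0.01 and 0.01, and with 1 array left out at a time at most 1 member of a list was called in a direction.

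Genes that DCs raise on maturation had mostly negative changes, and those of 4 costimulatory molecules were small. Cd80, Cd86, Cd40 and Cd83 changed by 0.26, 0.07, -0.14 and -0.05 on the log2 scale, and none of the 4 was called. Of 22 maturation genes 5 fell, 3 without AF76, and 1 rose. Of the 22 changes 17 were negative and 5 positive, with a median of -0.19, and 2 were higher and 12 lower at an unadjusted limma p under 0.05. Slamf1, a lymphocyte signaling receptor, was 8.03, 7.67 and 7.98 in naïve and 8.97, 9.16, 9.16 and 9.11 in stimulated DCs, a 2.31-fold rise (adjusted p = 0.00138), with 1 of its 3 probe sets not called. Tnfrsf9, a costimulatory receptor, fell by 1.35 on 1 probe set, while the other 2 were not called.

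Type 2 and regulatory cytokine genes were represented by 25 members, of which 5 fell, 3 without AF79 and 3 in the fit without dim probe sets. Il10, the anti-inflammatory cytokine, was 5.59, 5.45 and 5.69 in naïve and 4.15, 4.06, 4.07 and 4.21 in stimulated DCs, a 2.74-fold fall (-1.46 ± 0.12, adjusted p = 1.5e-06). Its stimulated levels lay below the lower quartile of all probe sets on those arrays, 5.00 to 5.04, so the size of the fall is uncertain. Il12b, the shared subunit of IL-12 and IL-23, fell by 0.48, with its second probe set not called. The type 2 cytokine gene Il13 and the alarmin Il33 changed by -0.17 and 0.08, and the shared receptor chain Il4ra by -0.28, and none of these was called.

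Genes of lipid mediators moved both ways. Of 17 eicosanoid genes 4 rose and 4 fell. Beside Alox12, the cysteinyl leukotriene receptor Cysltr1 was 7.98, 8.18 and 7.61 in naïve and 9.25, 8.88, 9.23 and 9.05 in stimulated DCs, a 2.27-fold rise (adjusted p = 3.09e-05). The prostacyclin receptor Ptgir rose by 1.13 and the prostaglandin E receptor Ptger2 by 0.86, while Ptgs2, which makes the precursor of their ligands, fell by 1.89 on the log2 scale. Of 19 retinoid and Notch genes 6 fell and 1 rose, with a median of -0.08. The gene that rose was Aldh1a1, an enzyme of retinoic acid synthesis (3.04-fold, 1.61 ± 0.18, adjusted p = 3.04e-05), and the largest fall was that of Hey1, a target of Notch signaling (-0.76 ± 0.17, adjusted p = 0.00741). Of 20 genes of amino acid and endoplasmic reticulum stress 4 fell and 2 rose, with a median of -0.09. Asns, the asparagine synthetase induced by amino acid stress, was 8.49, 8.59 and 8.75 in naïve and 9.95, 9.75, 9.49 and 9.82 in stimulated DCs, a 2.21-fold rise. Of 12 genes that write, read or erase DNA methylation 2 rose and 1 fell, with a median of 0.17. The largest rise was that of Mbd4, a methyl-CpG binding glycosylase, by 0.60. In the fit without dim probe sets 0 members rose, and with all 24 arrays in the fit 0 fell. Both counts also moved in several fits that left out 1 array. The methyltransferases Dnmt1, Dnmt3a and Dnmt3b changed by 0.16, 0.24 and -0.06 with no call. Dnmt3a had an adjusted p of 0.0213 in the limma test, but its change was under the size required for a call.

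Whether the effect differed in asthma-at-risk pups was tested as the difference of the 2 effects, at-risk minus normal, over all 22626 probe sets. It passed for 11 probe sets (0.0486%) of 10 genes, against 1903 at an unadjusted p under 0.05. All 11 had fallen in normal DCs, and all 11 differences were positive. The effect in normal pups is subtracted in the difference, so the same arrays enter both and these directions are not independent. For Chil3 the log2 change was -1.76 in normal and -0.24 in at-risk pups (adjusted p = 0.00682). Phlda1 changed by -1.52 and -0.63, Mfge8 by -1.25 and -0.45, Xcl1 by -1.90 and -0.77, Il6 by -1.30 and -0.20, and both probe sets of Socs2 by -0.64 and -0.02 and by -0.89 and -0.06. The stem cell protein Prom1 fell by 1.91 in normal pups and changed by -0.03 in at-risk pups. Ptpn2, a phosphatase of Jak-Stat signaling, Anxa3, an annexin of neutrophils, and 1 of 2 probe sets of Dnajb4, a heat shock cochaperone, completed the list. For Phlda1, Mfge8 and Il6 the stimulated means were close in the 2 kinds of pups, and the naïve means were apart. The stimulated means were 7.75 in both for Phlda1, 8.70 in normal and 8.69 in at-risk pups for Mfge8, and 5.44 and 5.36 for Il6, beside naïve means of 9.27 and 8.38, of 9.95 and 9.14, and of 6.74 and 5.56. Il6 was dim, and the filter on dim probe sets left it out. The naïve means were also further apart than the stimulated means for Ptpn2 (7.76 and 7.30 against 7.21 and 7.39) and for both probe sets of Socs2. These were 10.92 and 10.39 against 10.28 and 10.37, and 9.30 and 8.78 against 8.41 and 8.72. For Chil3 the naïve means were 11.79 and 11.53 and the stimulated means 10.04 and 11.28. With 1 array left out at a time, 30 calls were made without AF90 and 28 without AF80, but 6 without AF84, 5 without AF89 or AF77, 3 without AF81 or AF76, and 1 when AF91, AF87, AF86, AF83 or AF82 was the array left out. Without AF79, 10 calls were made, 6 of them shared with the 11, and those of Il6 (adjusted p = 0.0625), Prom1 (0.0788), Xcl1 (0.0534) and both probe sets of Socs2 (0.0502 and 0.055) were lost. Chil3 kept its call in each of these 15 fits, but not with all 24 arrays in the fit and set as a term, where its difference was 0.97 (adjusted p = 0.236). That fit made 31 calls, 5 of them shared with the 11. The calls of Xcl1 (0.53, adjusted p = 0.363), Anxa3 (0.46, adjusted p = 0.24), Prom1 (1.63, adjusted p = 0.0832) and both probe sets of Socs2 (0.39 and 0.52, adjusted p = 0.215 and 0.191) were lost there too. Ppbp changed by 5.37 in normal and 5.40 in at-risk pups, Pf4 by 4.40 and 4.57, and Klf1 by 1.81 and 2.36, with no call in the difference.

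**Figure D5:**
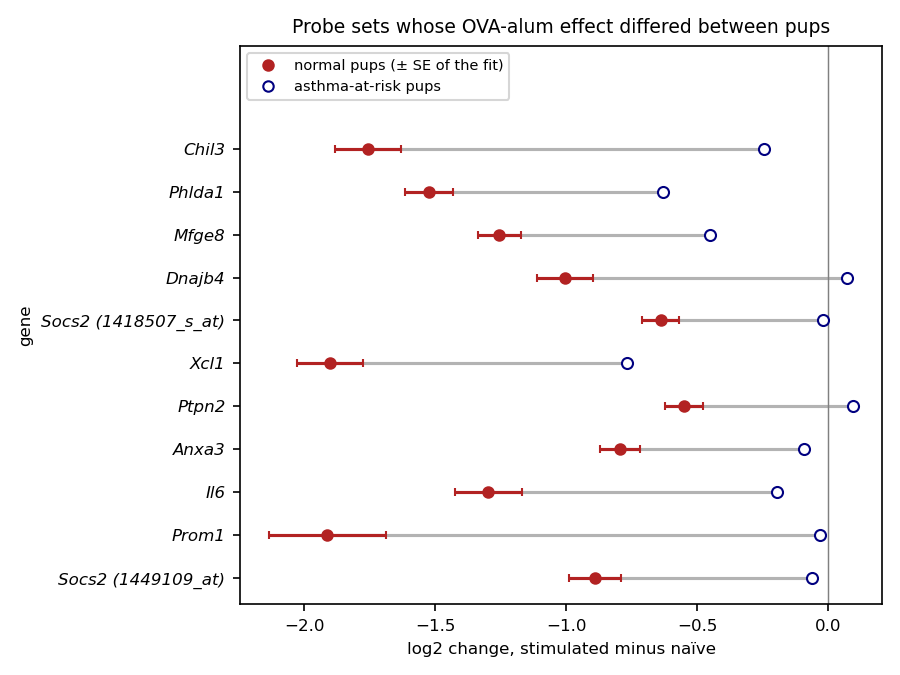
Log2 change from naïve to stimulated DCs (x axis) in normal pups (filled, ± SE) and in asthma-at-risk pups (open) for the 11 probe sets whose effect differed (y axis). Normal pups lie at the left in each row, as for Chil3 at -1.76 against -0.24.

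Set 2 held 4 more arrays of stimulated normal DCs, amplified by another method, preprocessed apart and without naïve arrays, so its levels are set beside those of Set 1 without a test. The mean of Set 2 lay nearer to the naïve than to the stimulated normal mean of Set 1 for all 15 of the largest rises and for 6 of the 15 largest falls. Ppbp was 7.01 to 7.90, Pf4 8.21 to 8.75 and Itga2b 5.94 to 6.63 on the log2 scale on these arrays. In stimulated at-risk pups of Set 2 the mean of the platelet list was 7.86 to 9.12. By the same measure, the called genes of other lists lay nearer to the stimulated mean for 19 of 21 immediate early genes, 10 of 13 NF-kB genes, 11 of 14 T cell genes and 10 of 10 neutrophil genes. The same held for 10 of 15 cell cycle genes and 6 of 10 NK cell genes, but for 0 of 4 endothelial genes. The share over all called probe sets was not computed, so these counts have no background beside them. Cxcl1 was 5.20 to 5.29 and Ctla4 6.03 to 6.39 on these arrays, below the stimulated means of Set 1. Igha was 10.17 to 10.59, C6 9.06 to 9.44, Xcl1 10.20 to 10.24 and Hspa1b 12.48 to 12.84, nearer to the naïve means or above them. Called macrophage genes lay nearer to the naïve mean for 10 of 11, erythroid genes for 9 of 14, genes for uptake of dying cells and scavenger receptors for 7 of 8, and interferon genes for 6 of 10. Set and animals, amplification and preprocessing cannot be told apart in these values.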

How the data were processed

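RNA of bead-isolated CD11c+ splenic DCs was hybridized to Affymetrix Mouse430A 2.0 arrays. The deposited table held 1 linear intensity for each probe set and array, which the authors had summarised with RMA (version not given in the sources used here). By the methods Set 1 and Set 2 were preprocessed separately, Set 2 after NuGEN amplification. Log2 was taken of the intensity values with no pseudocount, and the 64 control probe sets were left out. RMA shares information between arrays and compresses low signals, so fold changes of dim genes may be understated. The number of arrays limits the precision.

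A linear model with 1 mean per group was fitted to the 15 Set 1 arrays with limma 3.58.1 (lmFit, eBayes) in R 4.3.3, and the effect in normal pups, that in at-risk pups and their difference were taken as contrasts. Calls needed an adjusted p (Benjamini-Hochberg, over 22626 probe sets) of at most 0.05 and a level at least 25% higher in one group than in the other. Values after ± are the SE of the fit, and "rose" and "fell" are used of calls. The fit was tested on simulated data. Tables were made with Python 3.11.15, pandas 2.3.3, numpy 2.4.6 and matplotlib 3.10.9.

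Probe sets were named from the platform annotation, 20380 with 1 symbol, 691 with several and 1555 with no symbol, and only the first kind was named. A gene was represented by the probe set with the highest mean over the 15 arrays. Named genes were the 15 largest rises and 15 largest falls, for each of 37 lists the 4 called members with the smallest adjusted p and the 2 largest changes, up to 5 genes per direction in the difference, and other list members with their values. Ptpn2 and Anxa3 were named after their values were seen. Of the list genes 638 had a probe set, and 78 were not analysed here. The arrays compared and the lists were chosen with earlier results of these data known. A list is described by its counts and median beside those of all probe sets, with no test of the list. Promoter sequences came from RefSeq.

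Alternatives were the 7 arrays of normal pups alone, all 24 arrays with set as a term, another quantile normalization, median centring, a filter on dim probe sets (those below percentile 40 of the mean), no threshold on the size of the change, a test of the 25% difference itself (treat), a variance trend with robust estimation, array weights, 1 probe set for each gene, and leaving out every array once.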

Additional observations from a re-analysis of the deposited data

Results flagged for a closer look

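Among the 4 stimulated normal arrays, 1 array lay far from the other 3 for 8 of the 139 genes named and for the mean of 1 of 37 lists, where chance alone picks out about 1 in 20. AF85 was the highest for Bcl11b, at 6.64 on the log2 scale against 6.25 to 6.27 on the others, and for Tnfaip3, at 6.91 against 6.51 to 6.56, and the lowest for Vwf, at 10.13 against 10.28 to 10.31. AF87 was the highest for Pf4, at 12.06 against 11.63 to 11.69, and the lowest for Cxcl13, at 6.95 against 7.55 to 7.66. AF84 was the highest for Phlda1, at 7.91 against 7.68 to 7.71, and for Sptb, an erythrocyte spectrin, at 8.10 against 7.53 to 7.60. AF86 was the lowest for Ctsg, at 6.10 against 6.77 to 6.83, and for the mean of the oxidative phosphorylation list, at 12.31 against 12.32 on the others. 

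The effect of OVA with alum differed between at-risk and normal pups, at-risk minus normal on the log2 scale, by 1.51 for Chil3, 0.89 for Phlda1, 0.81 for Mfge8, 1.08 for 1 probe set of Dnajb4, 0.62 and 0.83 for the probe sets of Socs2, 1.13 for Xcl1, 0.64 for Ptpn2, 0.70 for Anxa3, 1.10 for Il6 and 1.88 for Prom1. Each of these passed the test of the difference itself, and 0 passed when the 25% difference itself was tested.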

How the results depend on the processing

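The effect in normal pups gave 2599 called probe sets, 579 (237 higher and 342 lower) when the 25% difference itself was tested and 1490 with 1 probe set per gene, where fewer were tested. The other alternatives gave 1756 (the 7 arrays of normal pups alone) to 3224 (no threshold on the size of the change), and leaving out 1 array gave 2108 to 3109. The difference between at-risk and normal pups gave 11 called probe sets, 31 with all 24 arrays, 19 after median centring, 21 without dim probe sets, 0 in the test of the 25% difference itself (1903 had an unadjusted p under 0.05), 21 with trend and robust estimation, 42 with array weights and 21 with 1 probe set per gene. With 1 array left out, it gave 1 to 30. The cause of these shifts was not tested. Of 116 named genes called in normal pups, 90 kept their call in each of the 25 alternatives that tested them, and 0 reversed their direction. Several of these alternatives, such as leaving out an array of at-risk pups, left the log2 change in normal pups as it was. A reversal was not possible in them, and without the threshold on the size of the change no call could be lost. No paired analysis was possible because the groups share no replicate numbers. Median centring moved the median log2 change of all probe sets to -0.027 and quantile normalization to 0.0065. Changes under 25% were not called because of the call rule, and with no such threshold 3224 probe sets passed. The 3 naïve and 4 stimulated arrays limit the power to detect small changes.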
